A study of Drosophila melanogaster with 6 samples.

Results

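Nicotinic acetylcholine receptor subunit genes were examined in third-instar larval brains of Drosophila melanogaster, with and without a DNMT3L transgene driven in neurons. The members were the 10 genes whose symbol in the deposited table is nAChRalpha1 to nAChRalpha7 or nAChRbeta1 to nAChRbeta3. All 10 were found among the 17737 genes of the table, and 9 of them passed the filter on low counts. The control group held 3 libraries of the genotype elavC155-Gal4, a driver inserted at the elav gene that expresses the yeast activator Gal4 in neurons. The DNMT3L group held 3 libraries from a cross of elavC155-Gal4 to a w/w stock. That stock carried P(UAS-DNMT3L,w+) over the Cyo balancer and the balancers TM2 and TM6B. The driver is named for both groups, but the control genotype names no such cross. Driver dose, genetic background and balancers may therefore differ with the group, and they cannot be told apart from the transgene. DNMT3L is a mammalian cofactor of DNA methyltransferases that has no catalytic activity of its own, and UAS is the sequence that Gal4 binds. The labels do not say that larvae that inherited the insertion rather than the balancer were picked, and the level of the DNMT3L transcript was not analysed here. Sex and the number of brains per library are not stated. Separate cultures or animals for the replicates are not stated, so each p-value reflects only how far these libraries spread, which may be technical.

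Nicotinic receptors are pentameric ion channels of the Cys-loop family that open when acetylcholine binds and let cations into the cell. Acetylcholine is the main fast excitatory transmitter of the insect central nervous system, while the larval neuromuscular junction of flies uses glutamate. Alpha subunits carry a pair of adjacent cysteines at the acetylcholine binding site, and beta subunits lack them. Different combinations of subunits give receptors with different pharmacology, and several fly subunits are targets of insecticides.

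Reads counted per library were between 17928420 and 19251845. The values below are CPM, read counts relative to library size scaled by the TMM factors of edgeR, unless FPKM, which also divides by exonic size, is named. The 12 neuron genes used as a check of the tissue were detected in all 6 libraries, among them elav at 36.8 to 474 CPM, and muscle and cuticle genes were detected too. Control 1 and DNMT3L 1 stood apart from the other libraries of their groups. For neuron genes the median deviation from the 6-library mean was −2.09 in control 1 and 1.39 in DNMT3L 1 on the log2 scale, against −0.26 to 0.67 in the other 4. For 8 muscle genes the same 2 libraries lay at 1.38 and −1.75, against −0.25 to 0.68 in the rest, and the summed muscle level was 391 to 852 CPM in controls and 89.3 to 339 CPM in DNMT3L. The log2 fold changes of the subunits, their shares and their levels relative to neuron genes are therefore also given without both libraries.

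Coordinates are those of the deposited table (build BDGP6, equal to dm6), and all 10 members have the same coordinates in the Ensembl release 115 annotation. The members differed widely in size. Compact genes were nAChRalpha2 (chromosome 3R, 24485428 to 24491147, plus strand), nAChRbeta2 (3R, 24509228 to 24515106, minus strand) and nAChRbeta1 (3L, 4429349 to 4435993, plus strand), with exonic sizes of 2387, 4018 and 2974 bases. Long genes with large introns were nAChRalpha1 (3R, 24393896 to 24457157, minus strand), nAChRalpha3 (X, 8276200 to 8367169, minus strand), nAChRalpha4 (3L, 23206669 to 23287448, plus strand), nAChRalpha5 (2L, 14040170 to 14094401, plus strand) and nAChRalpha6 (2L, 9793317 to 9886250, minus strand). Their exonic sizes were 11027, 10506, 6050, 9373 and 7779 bases, and the longest intron, in nAChRalpha6, had 43779 bases. nAChRalpha7 (X, 19327075 to 19348447, minus strand; exonic size 5778 bases) lay between these classes. nAChRbeta3 (2L, 545129 to 547096, plus strand) was the shortest, with 1532 exonic bases.

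The genes nAChRalpha1, nAChRalpha2 and nAChRbeta2 lie in that order within 121211 bases of chromosome 3R, separated by 28270 and 18080 bases. nAChRalpha6 has the most annotated transcripts of the family, 7 with 6 different coding sequences, followed by nAChRalpha4 with 6 transcripts and 5 coding sequences. The table gives 1 count per gene, so isoforms were not told apart. A pair of members, nAChRalpha3 and nAChRbeta3, share exonic bases with another gene of the table on the opposite strand. For nAChRalpha3 these are 251 bases shared with CG1636. For nAChRbeta3 all 1532 exonic bases lie within exons of Ets21C, which encodes a transcription factor of the ETS family. nAChRalpha4 shares 247 exonic bases with a gene of the Ensembl annotation on the opposite strand that is not among the genes of the table. Transposon insertions annotated across nAChRalpha4 cover 680 of its 6050 exonic bases (11.2%), where reads may not map to 1 place.

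nAChRbeta3 had 0 reads in each of the 6 libraries. A count of 0 allows up to 3 reads, or 0.156 to 0.167 CPM before TMM scaling, by counting error only. Ets21C, on the opposite strand over the same bases, had 651 reads in all, and how reads were assigned where genes overlap is not stated. The 0 is therefore a count of reads assigned to nAChRbeta3 and not a limit on its transcript.

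Per length, nAChRalpha2 was the most abundant subunit transcript and nAChRalpha3 the least abundant of the 9 detected. Over all 6 libraries the mean FPKM was 15.8 ± 5.16 (SD, n = 6) for nAChRalpha2, a subunit of the 3R cluster, and 12.2 ± 6.20 for nAChRbeta1, a beta subunit on which neonicotinoid insecticides act. nAChRbeta2 followed at 6.51 ± 2.33 FPKM. Below these lay nAChRalpha7 at 4.41 ± 3.09, nAChRalpha4 at 4.34 ± 2.16 and nAChRalpha6 at 3.69 ± 3.16 FPKM. The lowest were nAChRalpha1 at 2.05 ± 1.30, nAChRalpha5 at 1.55 ± 1.37 and nAChRalpha3 at 0.247 ± 0.188 FPKM. Within libraries, nAChRbeta1 was above nAChRbeta2, nAChRalpha1 above nAChRalpha5 and nAChRalpha5 above nAChRalpha3 in 6 of 6. nAChRalpha2 was above nAChRbeta1 in 5 of 6, the exception being DNMT3L 2. The means pool groups that differ in level, and the middle of the order differed by group: nAChRalpha6 had a mean of 1.39 FPKM in controls, near nAChRalpha1 at 1.24 and below nAChRalpha4 at 2.68, and of 5.99 FPKM in DNMT3L, level with nAChRalpha4 at 6.01. The order of nAChRalpha7 and nAChRalpha4 was not fixed, with nAChRalpha7 above in only 2 of 6, and these neighbours did not differ beyond their spread.

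Setting DNMT3L against control libraries asks whether subunit transcripts differ when the UAS-DNMT3L stock is crossed to the neuronal driver. No subunit gene passed the test, edgeR's quasi-likelihood test with Benjamini-Hochberg adjustment over the 9495 genes tested. All 9 detected subunits had a higher mean in DNMT3L, with log2 fold changes between 0.54 and 2.0. Over all libraries the values ran from 1.45-fold for nAChRalpha2 to 3.79-fold for nAChRalpha5 and 4.01-fold for nAChRalpha6. That order depended on the libraries numbered 1: without both, the log2 fold change was highest for nAChRalpha6 (1.06) and nAChRbeta1 (0.96) and lowest for nAChRalpha3 (0.18), nAChRalpha1 (0.20) and nAChRalpha2 (0.22). In bulk tissue, more cells of a type and more RNA per cell cannot be told apart.

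**Figure D1:**
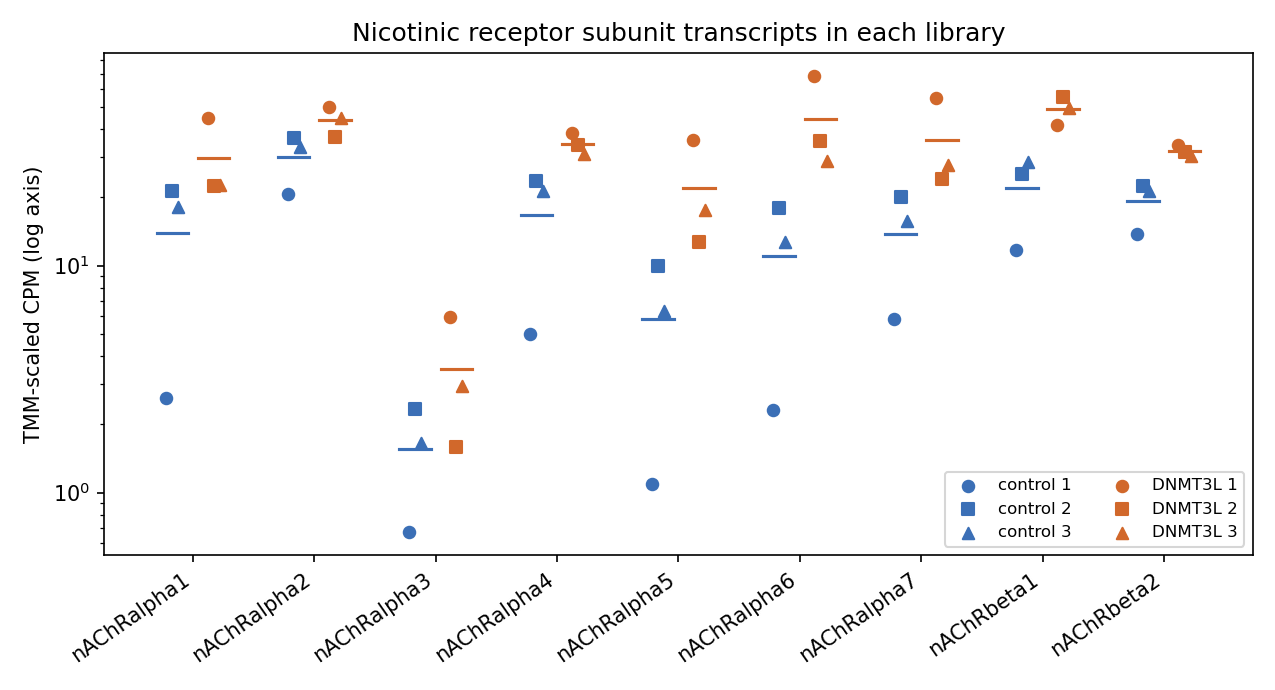
TMM-scaled CPM (log axis) of the 9 detected subunit genes in the 3 control libraries (blue) and the 3 DNMT3L libraries (orange); each point is a library, its shape the replicate number, and each bar a group mean. Control 1 is the lowest point for every gene, and only nAChRalpha3 has overlapping groups; nAChRbeta3, with 0 reads, is not drawn.

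nAChRalpha6, the subunit that the insecticide spinosad acts on in flies, was at 2.31, 18.0 and 12.7 CPM in controls 1 to 3 and at 68.5, 35.3 and 28.8 CPM in DNMT3L 1 to 3. The groups did not overlap, and the lowest DNMT3L library was above the highest control. The fitted log2 fold change of 2.0 ± 0.71 (SE) had a 95% confidence interval of 0.30 to 3.70 (edgeR adjusted p = 0.332). nAChRalpha5, which can form receptors with nAChRalpha6 and nAChRalpha7, was at 1.09, 9.98 and 6.32 CPM in controls and at 35.8, 12.7 and 17.6 CPM in DNMT3L. The lowest DNMT3L library, number 2, lay close above control 2, while DNMT3L 1 was far above the rest. The log2 fold change was 1.92 ± 0.76 (interval 0.10 to 3.74; edgeR adjusted p = 0.332). nAChRalpha7, needed in flies for the giant fibre escape jump, was at 5.84, 20.0 and 15.7 CPM against 54.8, 24.1 and 27.8 CPM. Its groups did not overlap either, and its log2 fold change was 1.36 ± 0.51 (interval 0.13 to 2.59; edgeR adjusted p = 0.332). Without both libraries numbered 1 the log2 fold changes of nAChRalpha6, nAChRalpha5 and nAChRalpha7 were 1.06, 0.89 and 0.54.

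nAChRalpha4, known as the sleep gene redeye, was at 4.98, 23.6 and 21.3 CPM in controls and at 38.2, 34.0 and 30.9 CPM in DNMT3L. The DNMT3L libraries were close to each other, and the wide control spread came from control 1. Its log2 fold change was 1.05 ± 0.52 (interval −0.21 to 2.30; edgeR adjusted p = 0.334), and 0.53 without both libraries numbered 1. nAChRalpha1, one of the subunits through which neonicotinoids act, was at 2.61, 21.3 and 18.0 CPM against 44.4, 22.3 and 22.7 CPM. DNMT3L 2 and 3 were only just above control 2, and the log2 difference of 1.09 ± 0.70 (interval −0.59 to 2.78; edgeR adjusted p = 0.379) was 0.60 without control 1 and 0.20 without both libraries numbered 1. nAChRalpha3 was at 0.669, 2.33 and 1.65 CPM against 5.96, 1.59 and 2.93 CPM. It was the only detected subunit whose groups overlapped, and its log2 difference of 1.16 ± 0.63 (interval −0.34 to 2.67; edgeR adjusted p = 0.343) was 0.18 without both libraries numbered 1. nAChRalpha2 was at 20.6, 36.5 and 33.4 CPM against 49.9, 36.8 and 44.8 CPM. DNMT3L 2 exceeded control 2 by less than the spread within either group, and the log2 fold change was 0.54 ± 0.25 (interval −0.06 to 1.1401; edgeR adjusted p = 0.333), and 0.22 without both libraries numbered 1.

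Among beta subunits, nAChRbeta1 was at 11.7, 25.2 and 28.6 CPM in controls and at 41.4, 55.4 and 49.2 CPM in DNMT3L. This gene was the one member for which DNMT3L 1 was the lowest DNMT3L library. Its log2 difference of 1.15 ± 0.34 (interval 0.34 to 1.97; edgeR adjusted p = 0.329) was 0.96 without both libraries numbered 1 and 1.07 with the length trend of each library removed. nAChRbeta2, through which neonicotinoids also act in flies, was at 13.7, 22.5 and 21.3 CPM against 34.1, 31.8 and 30.4 CPM. Its DNMT3L libraries lay close together, all above the highest control, and its log2 fold change was 0.74 ± 0.22 (interval 0.22 to 1.27; edgeR adjusted p = 0.329), and 0.50 without both libraries numbered 1. The intervals of nAChRalpha5, nAChRalpha6, nAChRalpha7, nAChRbeta1 and nAChRbeta2 lay above 0 before adjustment, and those of the other 4 included 0.

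**Figure D2:**
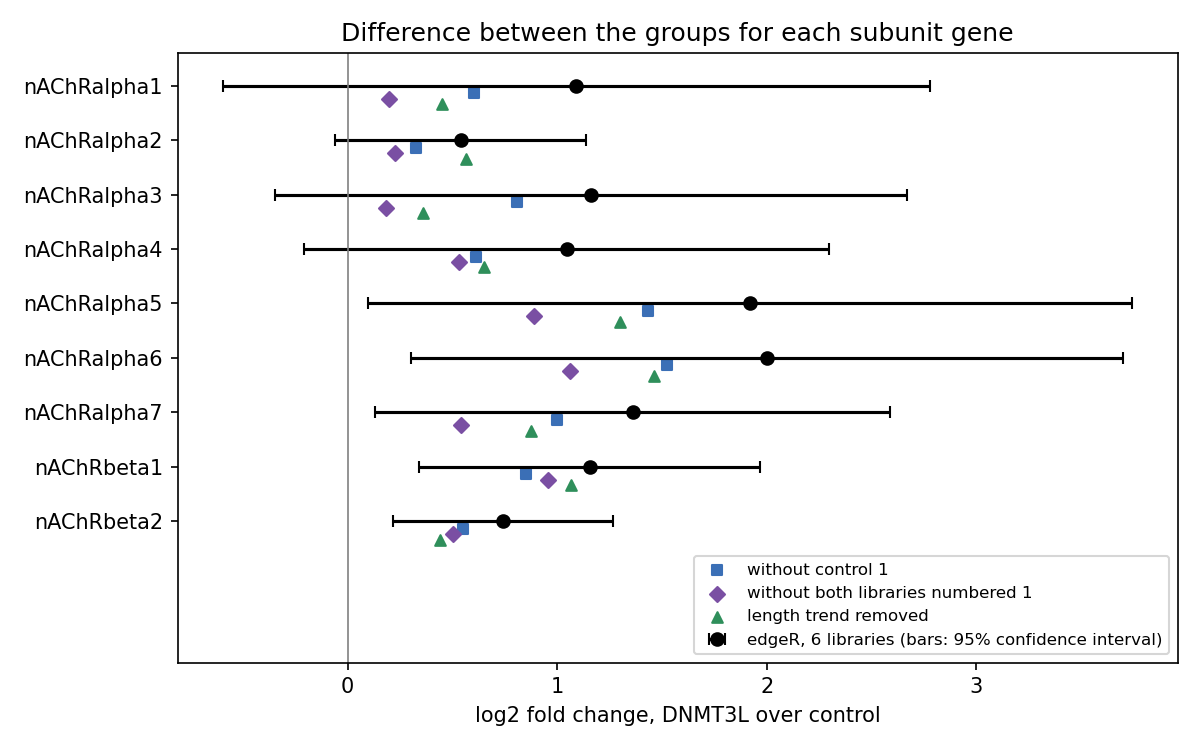
Log2 fold change (DNMT3L over control) of each detected subunit gene with its 95% confidence interval (black), and the same value without control 1 (blue), without both libraries numbered 1 (purple) and with the trend on exonic size removed (green). All point values are above 0; those of nAChRalpha6 lie between 1.06 and 2.0, and those of nAChRalpha1 between 0.20 and 1.09.

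As a group, 0 of 9 members were called by edgeR over all genes, where the background was 0% of 9495 genes. At an unadjusted p under 0.05, 5 of 9 members were higher, against 6.23% of all genes tested. For 8 of 9 members every DNMT3L library was above every control, against 14.0% of all genes. The same held for 9 of the 12 neuron genes, so it was not particular to the subunits. Of those 12 neuron genes, 5 were higher at an unadjusted edgeR p under 0.05. A positive log2 fold change was found for 9 of 9 members, against 47.7%. The median log2 fold change was 1.15 over the members and −0.03 over all genes tested. The 9 genes moved together across the 6 libraries, with correlations of log2 CPM between 0.67 and 0.99 over the 36 pairs (median 0.95), so they are not 9 independent observations. DESeq2 called 0 of 9 members, with adjusted p between 0.0629 and 0.329, where it called 2.44% of all genes. Voom with library quality weights called 4 of 9 as higher, nAChRbeta1 (limma adjusted p = 0.0206), nAChRbeta2 (0.0229), nAChRalpha6 (0.0303) and nAChRalpha5 (0.0393), against 5.73% of all genes called as higher. That fit gave control 1 a weight of 0.167 and control 3 a weight of 6.29.

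The size of the group difference depended on the libraries numbered 1. The members' median log2 fold change was 0.81 without control 1, 0.90 without DNMT3L 1 and 0.53 without both. Without both libraries numbered 1 the groups still did not overlap for 8 of 9 members, against 22.2% of all genes tested, a count added after the data were seen. In control 1, nAChRalpha1 was at 13.3% of the mean of controls 2 and 3, nAChRalpha5 at 13.4% and nAChRalpha6 at 15.0%. The compact genes nAChRalpha2, nAChRbeta2 and nAChRbeta1 were at 59.0%, 62.7% and 43.3% there, nAChRalpha7 at 32.7% and nAChRalpha4 at 22.2%. nAChRalpha3 was at 33.6% although it has the second largest exonic size of the family. Across the 9 genes, the log2 ratio of control 1 to the other controls was lower for genes of larger exonic size (Spearman rho = −0.78) and of longer span (rho = −0.65). The ratio of DNMT3L 1 to the other DNMT3L libraries went the opposite way (rho = 0.68 with exonic size). These are descriptions over 9 genes that share libraries, and genes are not replicates. All 9 members had an exonic size above the median of the genes tested, 2170 bases. With each library's trend on exonic size removed, the members' median log2 fold change was 0.65 and their log2 fold changes lay between 0.36 and 1.46. The part of transcript length in the group difference was not tested otherwise.

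**Figure D3:**
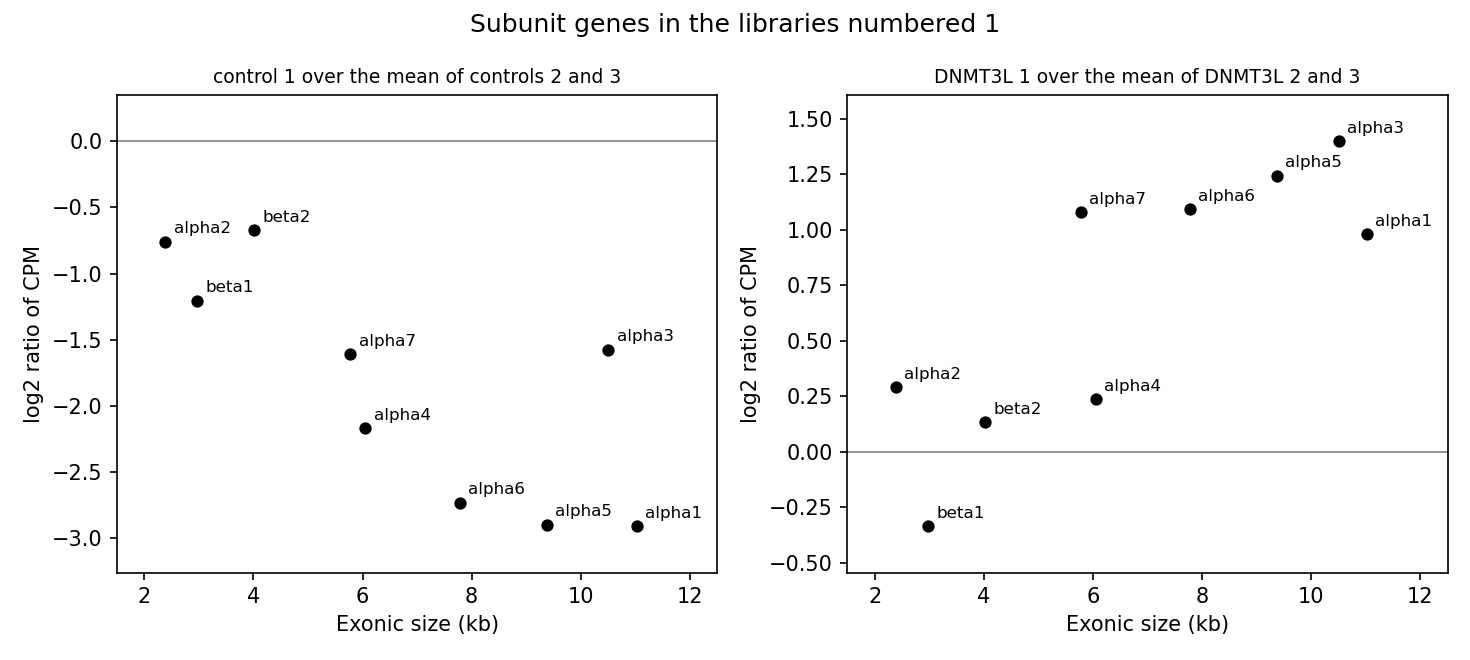
Log2 ratio of CPM in control 1 to the mean of controls 2 and 3 (left) and in DNMT3L 1 to the mean of DNMT3L 2 and 3 (right), against exonic size in kb, for the 9 detected subunit genes. On the left the compact genes lie nearest to 0 and nAChRalpha1, nAChRalpha5 and nAChRalpha6 between −2.91 and −2.73; on the right nAChRbeta1 is the only gene below 0.

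The make-up of the subunit pool was compared as each gene's percent of the summed subunit FPKM in its library, which does not depend on library scaling. The summed FPKM was 15.8, 42.8 and 37.7 in controls 1 to 3 and 80.0, 63.0 and 65.2 in DNMT3L 1 to 3. nAChRalpha2 made up 46.7%, 36.2% and 35.6% of it in controls and 27.4%, 25.8% and 30.9% in DNMT3L. Its share was thus lower in each DNMT3L library than in any control, at 28.0 ± 2.63% against 39.5 ± 6.24% (SD, n = 3). nAChRbeta2 was likewise lower in each DNMT3L library, at 12.3 ± 1.07% against 15.1 ± 2.94%. nAChRalpha6 was higher in each, at 11.5%, 7.58% and 6.11% in DNMT3L against 1.58%, 5.46% and 4.17% in controls. Without control 1 the difference in share was −1.12 percentage points for nAChRbeta2, against −2.82 over all libraries, −7.86 against −11.5 for nAChRalpha2 and 3.59 against 4.67 for nAChRalpha6. Without both libraries numbered 1 it was −0.54, −7.55 and 2.03 points, with the groups still apart for all 3. The nAChRbeta1 share, which overlapped over all libraries, was 6.90 points higher in DNMT3L there with no overlap. The nAChRalpha1 share also overlapped over all libraries. Without both libraries numbered 1 it differed by −0.987 points, lower in each DNMT3L library than in any control. For nAChRalpha2, nAChRbeta2 and nAChRalpha6 the two-sided exact permutation test gave p = 0.1, the smallest that 3 against 3 samples allow, and an adjusted p of 0.3 over the 9 subunits. The other 6 shares overlapped between groups over all libraries, with exact permutation p between 0.2 and 0.8. The beta subunits together held 39.7%, 33.3% and 38.1% of the pool in controls and 29.3%, 44.4% and 39.7% in DNMT3L, with no separation of the groups. By exonic size nAChRalpha2 is the smallest detected member, with 2387 bases. nAChRalpha6, with 7779, lies below nAChRalpha1 (11027), nAChRalpha3 (10506) and nAChRalpha5 (9373), whose shares overlapped over all libraries. The compact gene nAChRbeta1 (2974 bases) had a higher mean share in DNMT3L, with overlap. The part of the size trend in these shares was not tested.

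**Figure D4:**
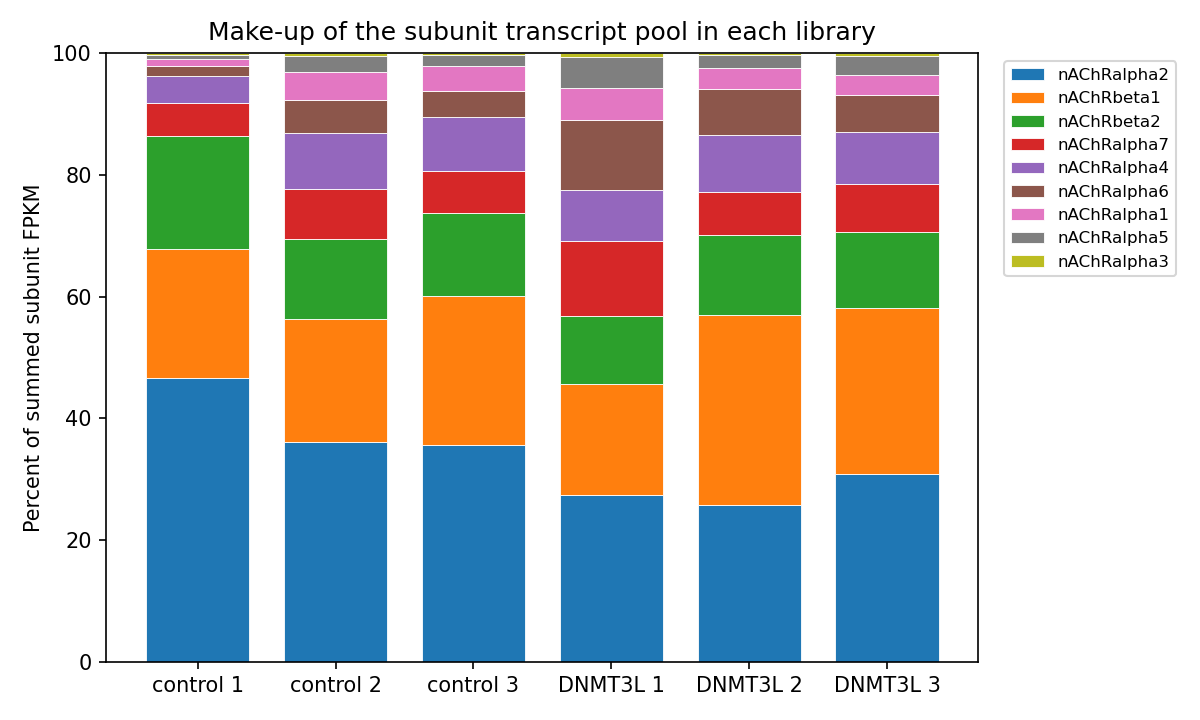
Each detected subunit gene as a percent of the summed subunit FPKM in each library, stacked to 100%. The nAChRalpha2 segment is 35.6% to 46.7% in controls and 25.8% to 30.9% in DNMT3L, and the nAChRalpha6 segment is 1.58% to 5.46% against 6.11% to 11.5%.

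Set beside neuron genes of the same library, the subunits as a group showed no separation. The median log2 CPM of the 9 subunits minus that of the 12 neuron genes was −1.59, −1.40 and −1.20 in controls 1 to 3 and −2.06, −1.13 and −1.66 in DNMT3L 1 to 3. The group means differed by −0.22 (two-sided exact permutation p = 0.6), less than the spread within the DNMT3L group (SD 0.47). Neuron genes themselves had a median log2 fold change of 1.36, with 12 of 12 positive and 0 called by edgeR. Among them elav, an RNA-binding protein of neurons, was at 136 ± 89.8 against 328 ± 128 CPM. The Gal4 driver is inserted at this gene and its dose may differ with the group, and the part of the insertion in the elav counts was not tested. fne, another RNA-binding protein of neurons, was at 126 ± 87.3 against 312 ± 153 CPM with overlapping groups. The calcium channel gene cac was at 14.8 ± 8.27 against 56.4 ± 20.2 CPM and futsch, a microtubule-associated protein of axons, at 32.4 ± 14.4 against 96.7 ± 36.6 CPM. Glia genes had a median log2 fold change of 0.25, neuroblast genes 0.65, fat body genes −1.07, muscle genes −1.31 and cuticle genes −1.61, with 0 called by edgeR in each list. DESeq2 called 2 neuron genes (cac and futsch), 2 fat body genes and 1 cuticle gene. In the fat body list 5 of 6 genes were lower in DNMT3L and 1, Fbp2, was higher. Lsp1gamma, a larval serum protein, was at 517 ± 155 against 176 ± 32.5 CPM. Fbp2, a fat body protein, was at 0.931 ± 0.527 against 20.4 ± 3.75 CPM, higher in every DNMT3L library (edgeR adjusted p = 0.0794, DESeq2 adjusted p = 1.22e-20). Its control level was low, with 18, 25 and 6 reads in controls 1 to 3. Lsp1gamma and Fbp2 were chosen after their values were seen. The part of tissue make-up in the subunit differences was not tested.

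Taken singly, subunits went in both directions relative to neuron genes, and none passed adjustment over the 9 subunits. The share of all genes whose groups were apart on this scale was not computed. Relative to the neuron gene median, nAChRalpha5 was higher in each DNMT3L library than in any control (a difference of 0.59 in log2 CPM), and nAChRalpha2, nAChRalpha3 and nAChRalpha7 were lower in each (differences of −1.07, −0.57 and −0.21). Each of these 4 reached exact permutation p = 0.1, the smallest possible, with an adjusted p of 0.225 over 9 subunits. Without control 1 the difference of nAChRalpha5 was 0.23, and DNMT3L 2 at −2.45 lay close to control 2 at −2.49. Without both libraries numbered 1 the differences were 0.18 for nAChRalpha5, −0.50 for nAChRalpha2, −0.58 for nAChRalpha3 and −0.17 for nAChRalpha7. The mean difference was 0.68 for nAChRalpha6 and −0.87 for nAChRbeta2, each with overlapping groups (exact permutation p = 0.2), and without both libraries numbered 1 it was 0.35 and −0.21. nAChRalpha1, nAChRalpha4 and nAChRbeta1 overlapped as well over all libraries. Without both libraries numbered 1 their differences were −0.52, −0.19 and 0.24. There nAChRalpha1 was lower in each DNMT3L library than in any control, while the groups of nAChRalpha4 and nAChRbeta1 still overlapped. Without control 1 alone, nAChRalpha1 was also lower in each, at a difference of −0.56.

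**Figure D5:**
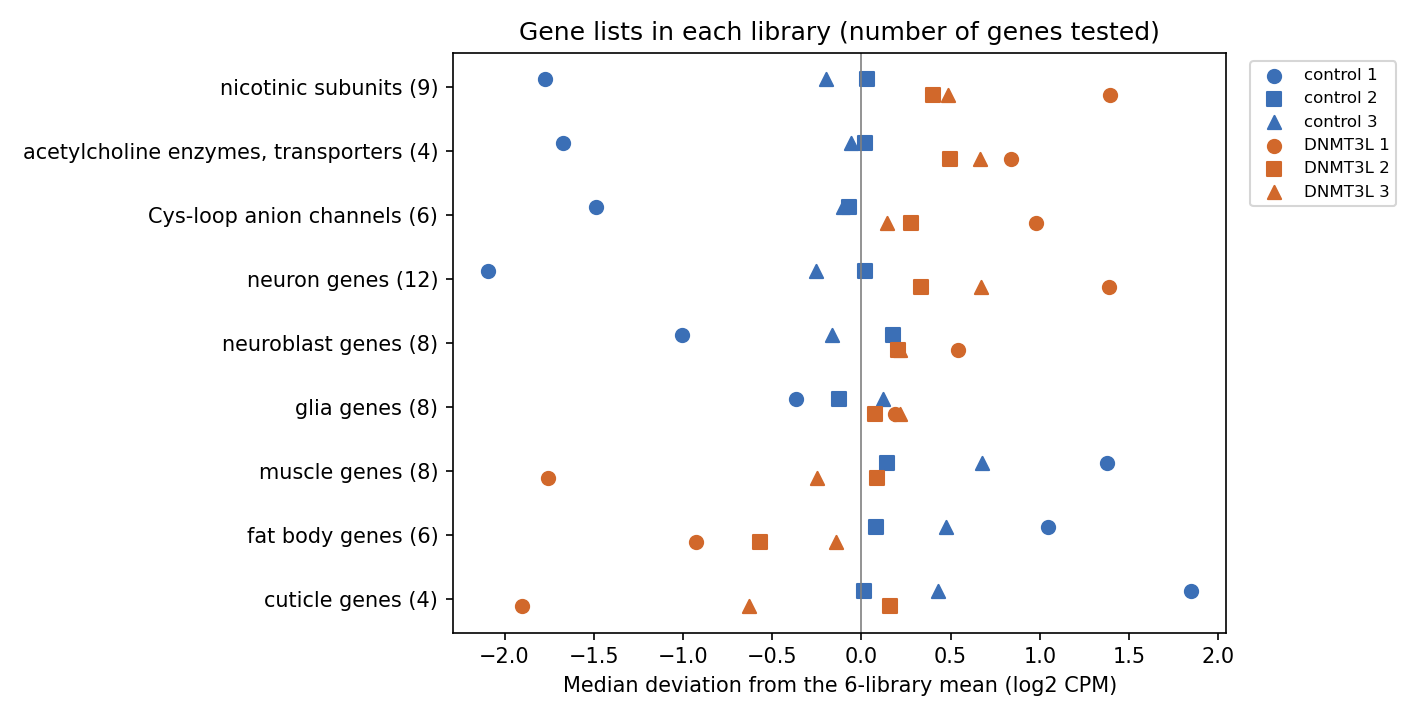
Median deviation of each gene list from its 6-library mean (log2 CPM) in the control libraries (blue) and the DNMT3L libraries (orange), with the number of genes tested in brackets. Nicotinic subunits and neuron genes have the same order of extremes, with control 1 lowest (−1.77 and −2.09) and DNMT3L 1 highest (1.39 and 1.39), and muscle and cuticle genes have the reverse.

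The other genes of acetylcholine signalling were higher on average in DNMT3L as well, and none was called by edgeR. Of 4 genes for synthesis, transport and breakdown, all 4 had positive values, and the median log2 fold change was 1.144, or 0.69 without both libraries numbered 1. ChAT, the enzyme that makes acetylcholine, was at 5.05, 16.2 and 11.6 CPM in controls and at 26.9, 23.7 and 25.4 CPM in DNMT3L, which is a log2 difference of 1.21 ± 0.40 by edgeR (adjusted p = 0.332). VAChT, the vesicular acetylcholine transporter, was at 27.0 ± 15.1 against 58.0 ± 10.0 CPM, and it shares 606 exonic bases with ChAT on the same strand, so reads of that stretch cannot be assigned to either with certainty. CG7708, which RefSeq names ChT, a choline transporter, was at 9.05 ± 4.66 against 20.6 ± 4.95 CPM. It shares 3299 of its 4748 exonic bases with CG46318 on the same strand, to which 0 reads were assigned. Reads of that stretch cannot be assigned with certainty either. The groups did not overlap for ChAT, VAChT and CG7708. They did for Ace, the acetylcholinesterase that breaks down the transmitter, at 35.2, 155 and 109 CPM against 232, 117 and 140 CPM. Its DNMT3L 2 and DNMT3L 3 values lay between those of control 3 and control 2, so its higher mean rested on the libraries numbered 1.

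Muscarinic receptors are the G protein-coupled receptors for acetylcholine. mAChR-A was at 3.95, 17.4 and 11.6 CPM in controls and at 34.4, 21.4 and 29.1 CPM in DNMT3L, with no overlap and a log2 difference of 1.36 ± 0.51 (edgeR adjusted p = 0.332). mAChR-B was at 3.11 ± 1.84 against 6.54 ± 1.91 CPM with overlapping groups. The median of the 2 genes was 1.21, or 0.73 without both libraries numbered 1. mAChR-C had 4 reads in all and was not tested.

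Of 5 genes for receptor assembly, placement or editing, 4 had positive log2 fold changes and 1 a negative one, with 0 called by edgeR. qvr encodes the membrane-anchored protein Sleepless, which acts on nicotinic receptors and potassium channels. It was at 9.85, 29.6 and 23.7 CPM in controls and at 69.0, 46.0 and 51.9 CPM in DNMT3L. The lowest DNMT3L library was well above the highest control, at a log2 difference of 1.40 ± 0.40 (edgeR adjusted p = 0.329), and DESeq2 called it (adjusted p = 0.044). RIC-3, a chaperone of nicotinic receptors, was at 23.1 ± 9.01 against 39.6 ± 7.57 CPM, and Adar, the RNA editing enzyme that acts on several subunit transcripts, at 63.0 ± 24.7 against 108 ± 28.8 CPM. Adar shares 498 exonic bases with a neighbouring gene, prage, on the same strand. hig encodes a protein of the cholinergic synaptic cleft. It was at 64.6, 69.7 and 71.8 CPM against 75.6, 74.0 and 76.5 CPM, with a log2 fold change of 0.13 ± 0.12 and a 95% confidence interval of −0.16 to 0.43. CG9773, which RefSeq names Unc50 and whose nematode relative is needed for nicotinic receptor trafficking, was at 30.6 ± 4.56 against 22.4 ± 2.13 CPM, with each DNMT3L library below each control (log2 fold change −0.45 ± 0.18; edgeR adjusted p = 0.332).

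Of 12 genes for anion channels of the same Cys-loop family, 6 passed the filter on low counts, and edgeR called 0. Positive log2 fold changes were found for 4 of these and negative ones for 2, HisCl1 and CG12344. Those 2 had low means of 1.92 and 2.88 CPM over the 6 libraries, with overlapping groups. For 3 of the 6 genes every DNMT3L library was above every control. The median log2 fold change was 0.91. That median was 0.53 without DNMT3L 1, 0.58 without control 1 and 0.21 without both. GluClalpha, a glutamate-gated chloride channel, was at 6.32, 25.9 and 19.7 CPM in controls and at 72.4, 43.7 and 48.3 CPM in DNMT3L. Its groups did not overlap, and DESeq2 called it (adjusted p = 0.0428), with a log2 fold change of 1.66 ± 0.50 by edgeR. Lcch3, a GABA receptor subunit, was at 24.6 ± 6.72 against 42.1 ± 5.44 CPM.

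The genes closest to the subunits in pattern over the 6 libraries were Calx, a sodium-calcium exchanger, smog, a G protein-coupled receptor, Rab8, a small GTPase, and the uncharacterised CG8679 and CG42450. Their log2 CPM correlated with the mean standardised profile of the 9 subunits at Pearson r between 0.999 and 0.9995, as a description over 6 libraries. Such values were common, since 1274 of the 7814 genes compared (16.3%) had r above 0.95. CG42450 was at 3.34, 20.7 and 17.0 CPM in controls and at 55.7, 31.9 and 36.4 CPM in DNMT3L, with control 1 lowest and DNMT3L 1 highest, as for every detected subunit but nAChRbeta1.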

How the data were processed

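Poly(A) or rRNA-depleted RNA of larval brains (the labels name both kits) was sequenced, 3 libraries per group. The deposited table holds raw read counts per gene and FPKM computed by the authors, per the file headers. The submitters' processing notes name HTSeq 0.6.1, HISAT2 2.0.1, DESeq2, cutadapt 1.9.1 and bcl2fastq 2.17.1.14, and the builds BDGP6 and dm6. Their roles, the strand setting and the annotation release were not given in the sources used. Counts were tested with edgeR 4.0.16 in R 4.3.3 (filterByExpr, TMM, quasi-likelihood test, Benjamini-Hochberg adjustment, threshold 0.05), in a model of group alone. The filter removed 8242 of 17737 genes and kept 9495, and the common biological coefficient of variation was 31.5%. Totals of 17928420 to 19251845 counts per library make 3 counts equal to 0.156 to 0.167 CPM. Shares of summed FPKM were compared with exact permutation tests (scipy 1.17.1 in Python 3.11.15), and plots were drawn with matplotlib 3.10.9.

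The members and gene lists were chosen with earlier results of these data known. Named were all nicotinic subunits, the detected genes of the acetylcholine, muscarinic and assembly lists, the 5 genes most correlated with the subunits, and, of the anion channel and neuron lists, the 2 with the highest mean CPM and the 2 with the lowest p. The 2 anion channel genes with negative values are named as well. Glia, neuroblast, muscle, fat body and cuticle lists are given as medians, and the only genes named from them, Lsp1gamma and Fbp2, were chosen after their values were seen. Of 6 assembly genes listed, 5 were found in the table. Alternatives were DESeq2 1.42.0, RLE and upper-quartile scaling, no filter, a replicate block, removal of each library's loess trend on exonic size (span 0.5), limma 3.58.1 on log2(FPKM + 1) and log2(FPKM + 0.1), voom with quality weights, and leaving out libraries. The replicate numbers do not pair the libraries by any label. The edgeR, DESeq2, voom and limma fits, the replicate block and the trend removal were run on simulated counts with known changes. The simulation held no length trend, no replicate effect and no outlying library. It therefore cannot show how the trend removal, the block or the quality weights perform where these are present. Sequences are not used here.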

Additional observations from a re-analysis of the deposited data

How the results depend on the processing

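All 9 detected subunits kept a positive log2 fold change in every alternative run, and their median lay between 0.53 and 1.53. Leaving out 1 library at a time gave medians of 0.81 to 1.53 and 0 genes called in each case, among subunits and among all genes. Of all genes, 260 were called by DESeq2, 2 with RLE scaling, 6 with no filter, 16 without both libraries numbered 1, 13 with the length trend removed, 13 and 11 by limma on log2(FPKM + 1) and log2(FPKM + 0.1), and 1126 by voom with quality weights. Of the subunits, voom called 4. The limma fits shifted the median of all genes by 0.15 and 0.17 from that of edgeR (−0.03), to 0.12 and 0.14, beside subunit medians of 1.07 and 1.44. With a replicate block the subunit median was 1.28, 0 genes were called and 2 subunits had an unadjusted edgeR p under 0.05. Libraries of the same number deviated from their group means in opposite directions (correlations −0.66, −0.54 and −0.18). These deviations are centred within groups of 3 libraries, so the correlations are not independent. They cannot decide whether libraries of equal number were prepared together, and no label says so. The median of the assembly genes was 0.28 without both libraries numbered 1, 0.056 with the length trend removed, 0.48 by voom and 0.49 to 1.005 when leaving out 1 library. Without both libraries numbered 1 the medians were 0.51 for neuron, −0.52 for muscle, −0.53 for cuticle and 0.21 for anion channel genes, and voom gave 0.38 for the last. Leaving out 1 library turned the sign of differences near 0: −0.356 to 1.30 percentage points for the nAChRalpha1 share, −0.0601 to 0.182 for nAChRalpha3, −0.3997 to 1.999 for nAChRalpha4, and −0.46 to 0.00273 in log2 CPM for subunits relative to neuron genes, with −0.56 to 0.0814 for nAChRalpha1 and −0.79 to 0.0813 for nAChRbeta1 alone. The other shares kept their sign, from −13.4 to −7.86 points for nAChRalpha2, −3.74 to −1.12 for nAChRbeta2 and 3.11 to 5.82 for nAChRalpha6. Without both libraries numbered 1, an alternative for shares and neuron-relative levels chosen after seeing the data, the shares of nAChRalpha1, nAChRalpha3, nAChRalpha4 and nAChRalpha7 differed by −0.987, −0.111, −0.19 and −0.101 points, against positive values over all libraries, and nAChRbeta1 relative to neuron genes by 0.24. The cause of these changes was not tested. With 3 libraries per group, exact tests cannot go below p = 0.1. Every tested subunit had at least 11 reads in each library, so depth limits nAChRalpha3 most.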
